A study of Rattus norvegicus with 12 samples.

Results

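The genes described here encode lysosomal enzymes and membrane proteins, a list of 35 chosen by name: soluble hydrolases, their cofactors, proteins of the limiting membrane, subunits of the proton pump and the transcription factor TFEB. Of these, 32 were read by a probe set that the platform's table pairs with that gene alone, among 18166 genes measured in the series. Ctsz, Gaa and Naglu were not analysed here. Earlier results of these data were known when the list was chosen. Each of the 32 had a single such probe set, and 29 of them were brighter on average than the median gene. The series set 6 urinary bladders of female Sprague Dawley rats aged about 3 months, taken 10 days after surgery with bilateral freezing of a ganglion, called pelvicus in the sample names (denervated), against 6 bladders of sham-operated rats of the same strain, sex and age. Sham animals had surgery without freezing, and the labels give no time for them. Total RNA of each sample was read on 1 array, and the values are log2 expression values. The labels do not say outright that each sample came from a separate animal, so p-values measure the spread between these samples, which may in part be technical.

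Lysosomes are acidic compartments in which proteins, glycans and lipids taken up from outside or delivered by autophagy are broken down. A proton pump of many subunits, the vacuolar ATPase, acidifies the lumen, heavily glycosylated membrane proteins shield the limiting membrane, and transporters return the products to the cytosol. Many genes of the compartment carry the palindrome CACGTG near their start site, through which the transcription factors TFEB, TFE3, MITF and TFEC can raise them together. Macrophages hold large amounts of several of these hydrolases, fibroblasts and osteoclasts use cathepsin K to degrade collagen, and all cells of the bladder have lysosomes.

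The labels call the tissue almost wholly smooth muscle, and the defining smooth muscle marker Myh11 was bright throughout, at 12.29 to 13.07 in denervated and 13.08 to 13.19 in sham bladders. Of 10 measured smooth muscle markers 7 fell, 1 rose and 2 were not called, and their mean level per array was 10.73 to 11.50 in denervated and 11.50 to 11.69 in sham bladders. Of 20 macrophage markers 18 rose, 0 fell and 2 (Cd163 and Marco) were not called, led by Ms4a6a (2.17 ± 0.40), Lyz2 (2.11 ± 0.14) and Cx3cr1 (1.83 ± 0.24), where each change is a log2 difference of group means with its SE. Their mean level per array was 8.95 to 9.73 in denervated and 8.07 to 8.20 in sham bladders. Of 12 fibroblast markers 7 rose and 1 fell, and their mean level was 10.45 to 11.27 in denervated and 10.27 to 10.57 in sham bladders. All 13 measured urothelial markers and 5 of 8 Schwann cell markers fell, and none of either list rose. No marker is also a member of the lysosomal lists. In whole tissue, fewer cells of a type and less RNA per cell cannot be told apart, and the part that cell numbers have in the changes below was not tested. Denervated replicate 2 stood apart from its group, nearest to the sham arrays on the first principal component (-5.84, against 25.9 to 42.5 in the other 5 denervated and -30.2 to -22.5 in the sham arrays).

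The comparison asks which lysosomal genes differ between denervated and sham-operated bladders. Most lysosomal proteases and several other hydrolases rose after denervation, while 4 of 5 membrane proteins and 3 of 4 proton pump members did not pass the test. Of the 32 measured genes, 18 rose, 0 fell and 14 were not called, where a call means an adjusted p under 0.05 in limma over all 18166 genes. Over all genes 28.7% were called, 11.9% higher and 16.9% lower, and among the 9083 genes brighter than the median gene 15.0% were called higher. For 15 of the 32 genes the lowest denervated value was higher than the highest sham value, against 5.76% of all genes. The median log2 change of the 32 was 0.21, against -0.04 over all genes. Ctsk, Lgmn, Lipa, Ctss and Atp6v0d2 rose at least 2-fold, which 2.90% of all genes did.

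**Figure D1:**
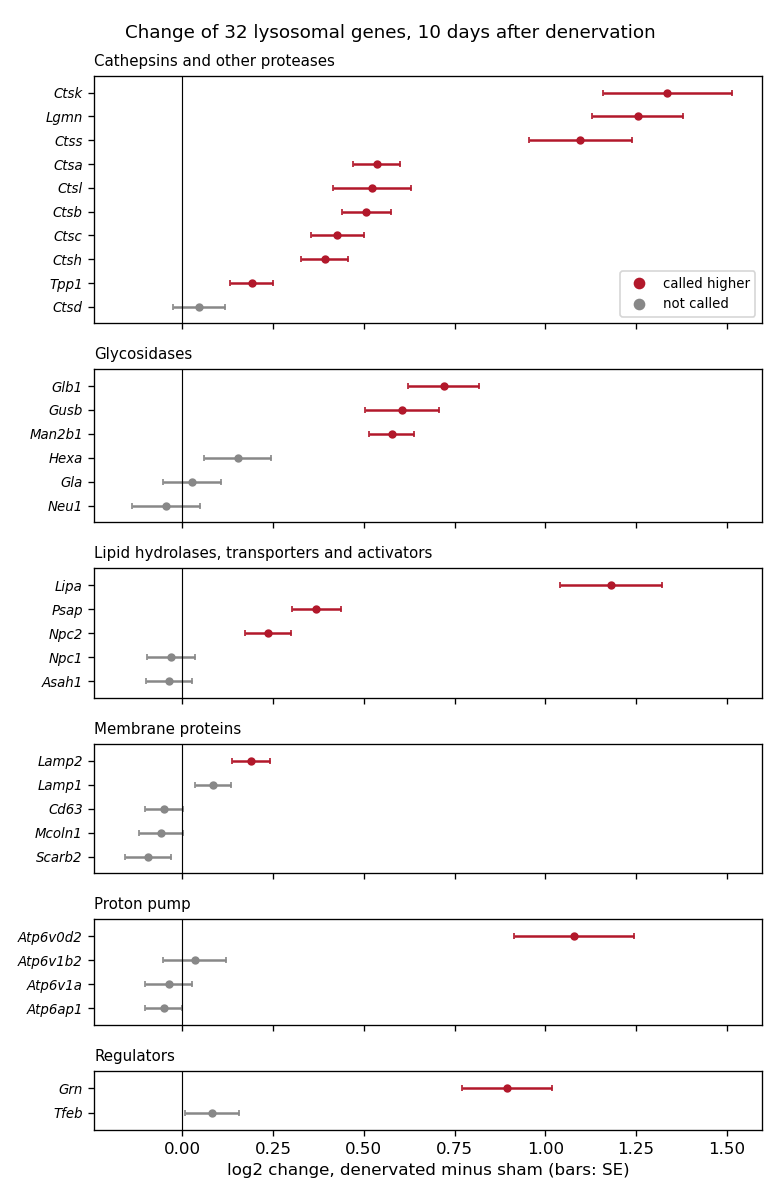
Log2 change (denervated minus sham, x axis) of the 32 measured lysosomal genes, grouped by role, with points for the change, bars for its SE, red for genes called higher and grey for genes not called (n = 6 per group). Proteases lie mostly to the right, up to 1.34 for Ctsk, and 4 of 5 membrane proteins and 3 of 4 proton pump members lie close to 0.

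Promoters were read to see which of these genes carry the palindrome. RefSeq windows of assembly GRCr8, from 250 bases before to 50 after the start site, were matched for 29 of the 35 genes. Asah1, Atp6v0d2, Atp6v1b2, Ctsb, Hexa and Psap were not among them. The core CACGTG, which reads the same on both strands, was in 6 of the 29 windows, and the longer TCACGTG, searched on both strands and always overlapping the core, in 5. Over all 33469 windows of the same length the core was in 6.42% and the longer form in 3.2%, and over the windows of genes tested here in 7.69% and 4.18%. Of the 15 windows of genes that rose, 1 held the core (Glb1), and of 11 windows of genes not called, 4 did (Ctsd, Lamp1, Cd63 and Mcoln1). The remaining holder, Gaa, was not measured under its own name. The match of letters is a description of these windows.

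The windows are shown for Glb1, the 1 gene that rose and holds the longer form, for Lamp1, Ctsd and Mcoln1, which hold it and were not called, and for Ctsk, which rose most and holds no core. All but that of Glb1 were chosen after their values were seen. Other sequences that TFEB and its relatives may bind were not searched for. The lack of the core in Ctsk therefore does not show that its window has no site for them. Capitals mark CACGTG with any T before it or A after it that completes the longer form. The windows are at chr8:122963468-122963767, plus strand (Glb1), chr16:83075014-83075313, minus strand (Lamp1), chr1:206968772-206969071, minus strand (Ctsd), chr12:6358008-6358307, plus strand (Mcoln1) and chr2:185747298-185747597, plus strand (Ctsk), each written 5′ to 3′ along the gene.
Glb1: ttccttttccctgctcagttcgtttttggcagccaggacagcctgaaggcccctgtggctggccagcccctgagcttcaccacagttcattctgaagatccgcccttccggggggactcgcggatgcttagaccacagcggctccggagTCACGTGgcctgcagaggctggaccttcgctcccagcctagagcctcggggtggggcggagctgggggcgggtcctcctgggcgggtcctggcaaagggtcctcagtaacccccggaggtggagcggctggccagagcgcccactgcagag
Lamp1: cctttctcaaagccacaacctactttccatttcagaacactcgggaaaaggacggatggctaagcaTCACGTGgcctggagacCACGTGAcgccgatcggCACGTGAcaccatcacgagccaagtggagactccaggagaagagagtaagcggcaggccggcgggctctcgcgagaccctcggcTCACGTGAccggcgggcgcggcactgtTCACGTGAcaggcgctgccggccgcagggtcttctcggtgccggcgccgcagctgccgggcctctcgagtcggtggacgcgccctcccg
Ctsd: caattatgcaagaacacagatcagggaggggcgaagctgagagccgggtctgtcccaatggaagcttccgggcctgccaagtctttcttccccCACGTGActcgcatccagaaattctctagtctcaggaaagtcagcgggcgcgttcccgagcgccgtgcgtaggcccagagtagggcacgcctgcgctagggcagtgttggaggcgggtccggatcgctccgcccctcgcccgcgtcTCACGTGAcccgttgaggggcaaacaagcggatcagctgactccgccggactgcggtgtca
Mcoln1: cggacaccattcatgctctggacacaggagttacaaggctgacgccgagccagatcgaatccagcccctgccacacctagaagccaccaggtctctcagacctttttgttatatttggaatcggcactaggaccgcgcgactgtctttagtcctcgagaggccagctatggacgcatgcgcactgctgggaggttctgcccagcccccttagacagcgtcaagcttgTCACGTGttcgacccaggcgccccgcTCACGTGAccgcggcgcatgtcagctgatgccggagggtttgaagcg
Ctsk: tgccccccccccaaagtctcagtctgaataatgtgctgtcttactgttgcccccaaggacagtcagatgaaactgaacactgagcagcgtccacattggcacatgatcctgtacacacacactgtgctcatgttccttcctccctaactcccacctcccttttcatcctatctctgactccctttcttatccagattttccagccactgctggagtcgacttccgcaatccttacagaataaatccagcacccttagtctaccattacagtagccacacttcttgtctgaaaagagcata

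Lamp1 held 5 copies of the core, which began 183, 167, 150, 65 and 38 bases before its start site. Ctsd held 2 copies, at 157 and 10 bases before the start, Mcoln1 2, of which the first began 22 bases before the start and the other just after it, and Glb1 1, at 100 bases before. Beside these counts, the log2 changes were 0.08 for Lamp1, 0.04 for Ctsd, -0.06 for Mcoln1 and 0.72 for Glb1.

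Among the proteases 9 of 10 measured genes rose and Ctsd was not called. Ctsk, the collagen-degrading cysteine protease best known from osteoclasts, rose most, by 1.34 ± 0.18 or 2.53-fold (adjusted p = 0.000241). Its values had a lowest, median and highest of 9.26, 10.02 and 10.21 in denervated bladders and 8.12, 8.51 and 8.85 in sham bladders. The groups did not overlap, but denervated replicates 2 (9.26) and 6 (9.41) stood well below the other 4, which lay between 9.90 and 10.21.

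Lgmn, or legumain, a protease that cuts after asparagine and activates other lysosomal proteases, had a lowest, median and highest value of 10.14, 10.75 and 11.06 in denervated bladders and 9.36, 9.47 and 9.55 in sham bladders. It rose by 1.25 ± 0.12 or 2.39-fold (adjusted p = 6.45e-05), with every denervated array above every sham array. Ctss, the cathepsin of antigen-presenting cells that trims the invariant chain of class II molecules, had values of 10.13, 10.52 and 11.12 in denervated bladders (lowest, median, highest) and 9.25, 9.51 and 9.61 in sham bladders. It rose by 1.10 ± 0.14 or 2.14-fold (adjusted p = 0.000207). In contrast to Ctsk, both Lgmn and Ctss were highest in denervated replicate 6, and all 3 were lowest in denervated replicate 2.

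**Figure D2:**
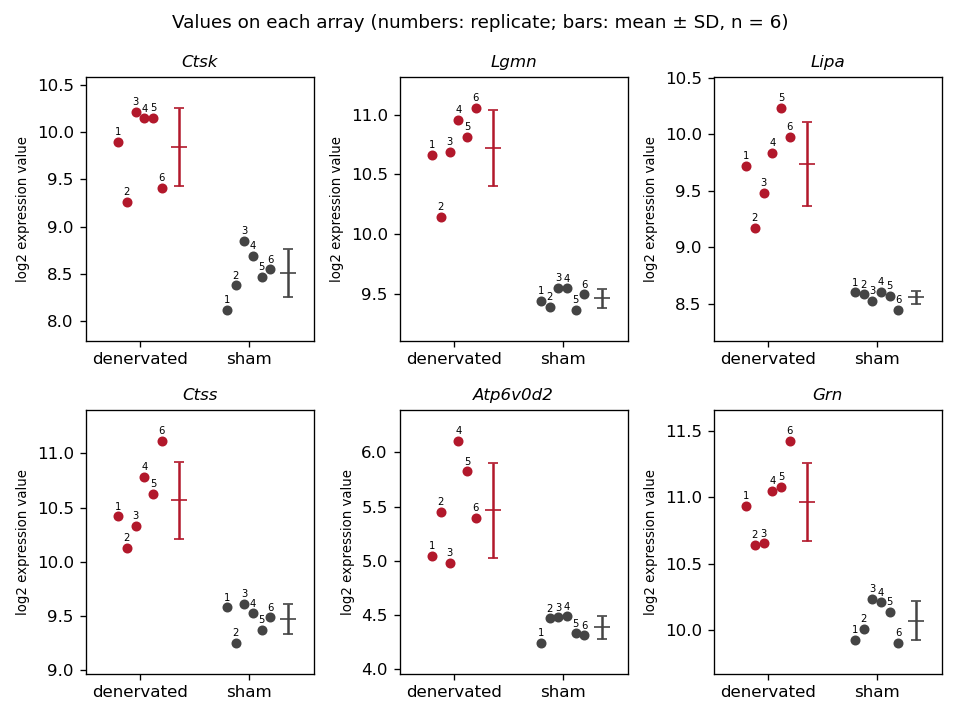
Log2 expression values (y axis) of 6 lysosomal genes on each array, denervated arrays to the left of sham arrays, with the replicate number above each point and the mean ± SD beside each group (n = 6). In all 6 panels the denervated points lie above the sham points, and replicate 6 is the highest for Lgmn, Ctss and Grn but among the 2 lowest denervated points for Ctsk.

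Of the other cathepsins, Ctsa, Ctsb, Ctsc and Ctsh rose. Ctsa, the protective protein that stabilises beta-galactosidase and sialidase, rose by 0.53 ± 0.06, with values of 10.36 to 10.70 in denervated and 9.93 to 10.05 in sham bladders. Ctsb, an abundant cysteine protease, rose by 0.51 ± 0.07, with 11.80 to 12.13 in denervated and 11.40 to 11.59 in sham bladders. Ctsc, which activates serine proteases of immune cell granules, rose by 0.43 ± 0.07, and the aminopeptidase Ctsh by 0.39 ± 0.06. For each of these 4 genes the groups did not overlap, and adjusted p lay between 0.000145 (Ctsa) and 0.00104 (Ctsc).

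Ctsl, a general cysteine endopeptidase, had values of 10.70, 11.30 and 11.44 in denervated bladders (lowest, median, highest) and 10.61, 10.68 and 10.84 in sham bladders. It rose by 0.52 ± 0.11 (adjusted p = 0.0028), and the overlap came from denervated replicate 2, which at 10.70 lay among the sham arrays while the other 5 lay above all of them. Tpp1, a tripeptidyl peptidase, had 10.17 to 10.38 in denervated and 9.93 to 10.17 in sham bladders, a change of 0.19 ± 0.06 (adjusted p = 0.0293). Its call was lost without denervated replicate 1, 3 or 4 or sham replicate 1 or 2, with adjusted p of 0.0536 to 0.0666. Ctsd, the major aspartic protease of the lysosome, had 11.24 to 11.60 in denervated and 11.29 to 11.47 in sham bladders, and its change of 0.04 ± 0.07 was not called (adjusted p = 0.696, 95% interval -0.11 to 0.20).

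Of 6 measured glycosidases, which take sugars off glycans and glycolipids, 3 rose and 3 were not called. Glb1, beta-galactosidase, had values of 9.54, 10.00 and 10.16 in denervated bladders (lowest, median, highest) and 9.11, 9.26 and 9.30 in sham bladders, a rise of 0.72 ± 0.10 or 1.65-fold (adjusted p = 0.00029). Gusb, beta-glucuronidase, had 7.37, 7.73 and 8.06 in denervated and 7.00, 7.08 and 7.23 in sham bladders, a rise of 0.61 ± 0.10 (adjusted p = 0.000961). Man2b1, an alpha-mannosidase, rose by 0.58 ± 0.06 (adjusted p = 8.02e-05), with 9.88 to 10.14 in denervated and 9.35 to 9.53 in sham bladders. None of these 3 overlapped between the groups, and Man2b1 varied little among denervated arrays, with 9.94 in replicate 2.

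The other glycosidases overlapped. Hexa, the alpha subunit of beta-hexosaminidase, stood at 0.15 ± 0.09 (95% interval -0.05 to 0.35, adjusted p = 0.248). Gla, alpha-galactosidase, stood at 0.03 ± 0.08 (adjusted p = 0.844) and Neu1, the lysosomal sialidase, at -0.05 ± 0.09 (adjusted p = 0.769). Neu1 was dimmer than the median gene.

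Among genes for lysosomal lipid handling, Lipa, the acid lipase that splits cholesteryl esters and triglycerides, rose by 1.18 ± 0.14 or 2.27-fold (adjusted p = 0.000141). Its values were 9.17, 9.78 and 10.23 in denervated bladders (lowest, median, highest) and 8.44, 8.58 and 8.60 in sham bladders. The sham arrays lay within 0.2 of each other, and even denervated replicate 2, the lowest of its group, was well above them. Psap, the precursor of the saposins that present glycolipids to hydrolases, rose by 0.37 ± 0.07 (adjusted p = 0.00149), with 11.74 to 12.11 in denervated and 11.49 to 11.67 in sham bladders.

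Npc2, the soluble carrier that hands cholesterol to the membrane protein NPC1, rose by 0.24 ± 0.06 (adjusted p = 0.0135) with 10.64 to 10.86 in denervated and 10.43 to 10.69 in sham bladders, which overlapped. Npc1 itself stood at -0.03 ± 0.07 (adjusted p = 0.768) and Asah1, acid ceramidase, at -0.04 ± 0.06 (adjusted p = 0.711).

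Of the 5 membrane proteins only Lamp2 rose, by 0.19 ± 0.05 or 1.14-fold (adjusted p = 0.0157). It is a glycoprotein of the limiting membrane that also serves in autophagy, and its values were 11.67, 11.73 and 11.86 in denervated bladders (lowest, median, highest) and 11.51, 11.52 and 11.62 in sham bladders. The groups did not overlap. Its relative Lamp1 had 11.55 to 11.65 in denervated and 11.40 to 11.58 in sham bladders, a change of 0.08 ± 0.05 (95% interval -0.02 to 0.19, adjusted p = 0.242). Scarb2, which carries glucocerebrosidase to the lysosome (-0.09 ± 0.06), the tetraspanin Cd63 (-0.05 ± 0.05) and Mcoln1, a calcium release channel (-0.06 ± 0.06), were not called, with adjusted p of 0.303 to 0.517. The upper ends of their 95% intervals were 0.04, 0.06 and 0.07.

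Of the 4 proton pump members, Atp6v0d2 rose. It encodes an isoform of the d subunit found in osteoclasts, macrophages and kidney, and it had values of 4.98, 5.42 and 6.11 in denervated bladders (lowest, median, highest) and 4.24, 4.40 and 4.49 in sham bladders. The change was 1.08 ± 0.17 (adjusted p = 0.000542) with no overlap. The sham values lay below the array medians of 5.82 to 5.90, and with no detection call in the table the signal over background is unknown there, which makes the 2.11-fold size uncertain. Atp6v1a, the catalytic subunit (-0.04 ± 0.06), Atp6v1b2, its partner in the head of the pump (0.03 ± 0.09), and the accessory protein Atp6ap1 (-0.05 ± 0.05) were not called, with adjusted p of 0.506 to 0.813.

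The 18 other measured subunits gave 2 higher, 1 lower and 15 not called, with a median change of -0.01. The share called higher was 11.1%, against 11.9% of all genes. Tcirg1, the a subunit isoform of osteoclasts and macrophages, rose by 0.75 ± 0.15 (adjusted p = 0.0022), with values of 8.02, 8.35 and 9.00 in denervated bladders (lowest, median, highest) and 7.52, 7.68 and 7.77 in sham bladders. Atp6v0b, a subunit of the ring in the membrane, rose by 0.29 ± 0.08, while Atp6v0e2, an e subunit isoform, fell by 0.66 (SE 0.07, adjusted p = 9.23e-05), with 7.74 to 8.08 in denervated and 8.45 to 8.69 in sham bladders. Other isoforms of the d and a subunits, Atp6v0d1 (-0.08), Atp6v0a1 (-0.20) and Atp6v0a4 (-0.09), were not called, nor was Atp6v1b1 (0.03), the other isoform beside Atp6v1b2. Atp6v0a4 and Atp6v1b1 lay below the array medians on every array, so their results say little.

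**Figure D3:**
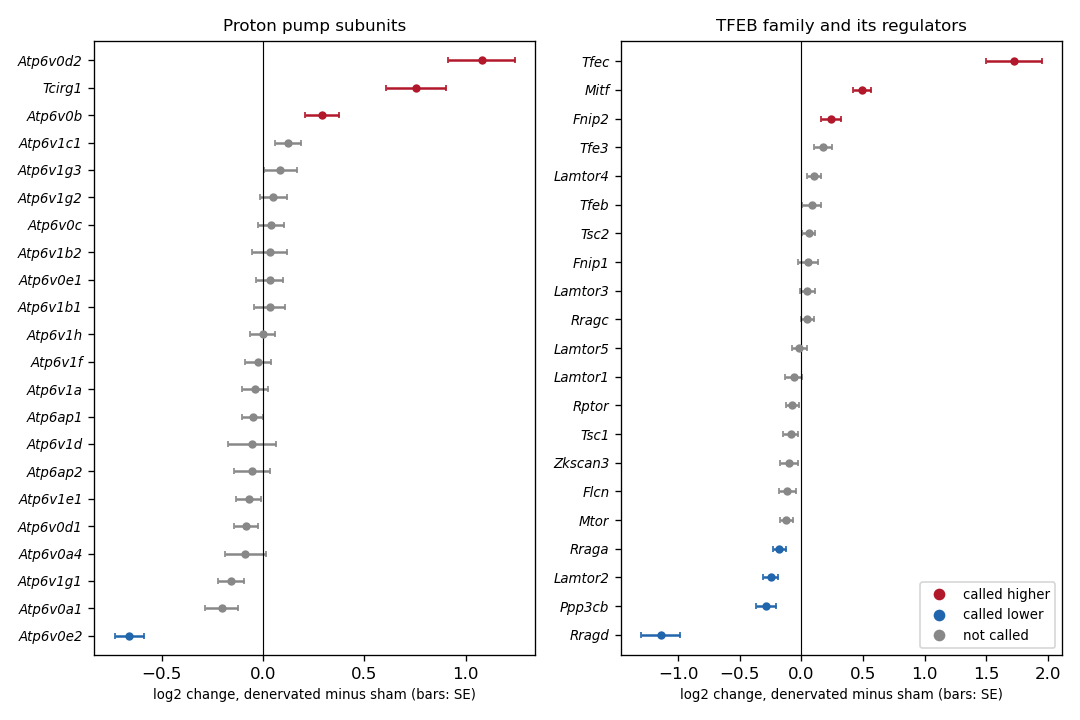
Log2 change (denervated minus sham, x axis) of 22 proton pump subunits (left) and of Tfeb with 20 other regulators of lysosome formation (right), with bars for the SE, red for genes called higher, blue for lower and grey for not called (n = 6 per group). Most points lie near 0, with Atp6v0d2, Tcirg1 and Tfec to the right and Atp6v0e2 and Rragd to the left.

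Grn, progranulin, which is cut into granulins in the lysosome and is needed for its function, rose by 0.89 ± 0.12 or 1.86-fold (adjusted p = 0.000319). It had values of 10.64, 10.99 and 11.43 in denervated bladders (lowest, median, highest) and 9.90, 10.07 and 10.24 in sham bladders, with no overlap and with denervated replicate 6 highest. Tfeb stood at 0.08 ± 0.08 (95% interval -0.08 to 0.24, adjusted p = 0.469), with 6.22 to 6.68 in denervated and 6.27 to 6.44 in sham bladders. Tfeb was dimmer than the median gene, and the activity of its protein was not measured.

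Of the relatives of TFEB, Tfec and Mitf rose and Tfe3 was not called. Tfec, the member of the family known in mice mainly from macrophages, had values of 7.02, 7.53 and 8.81 in denervated bladders (lowest, median, highest) and 5.86, 5.91 and 6.11 in sham bladders. It rose by 1.72 ± 0.23 or 3.31-fold (adjusted p = 0.000233), and its highest value was again in denervated replicate 6. Its sham values lay close to the array medians of 5.82 to 5.90, and with no detection call the 3.31-fold size is less sure. Mitf rose by 0.49 ± 0.07 (adjusted p = 0.000441), and Tfe3 stood at 0.17 ± 0.07 (adjusted p = 0.0886).

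Tfec, Mitf and Fnip2 (0.24) were the 3 that rose among 20 measured regulators of lysosome formation and of its control by the mTOR complex, while 4 fell, shares near the 11.9% higher and 16.9% lower over all genes. Rragd, a small GTPase that carries signals of nutrient supply from the lysosome to that complex, fell by 1.14 (SE 0.16, adjusted p = 0.000307), with 6.07, 6.53 and 7.26 in denervated bladders and 7.56, 7.68 and 7.94 in sham bladders (lowest, median, highest). The others that fell were Ppp3cb, a calcineurin subunit (-0.29 ± 0.08), Lamtor2 (-0.25) and Rraga (-0.18). The median change of the list was -0.04, as was that of all genes.

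A wider list of lysosomal hydrolases held 39 genes. Of 29 measured, 13 rose, 1 fell and 15 were not called, with a median change of 0.12, against -0.04 over all genes. The shares were 44.8% higher and 3.45% lower, against 11.9% and 16.9% of all genes. All 29 were brighter than the median gene, and 15.0% of such genes were called higher. Ifi30, a thiol reductase of antigen processing, rose most (0.97 ± 0.10), followed by the exonuclease Pld3 (0.83 ± 0.10), the phospholipase-like Plbd1 (0.82 ± 0.12) and the carboxypeptidase Scpep1 (0.78 ± 0.09). Hyal1, a hyaluronidase, fell by 0.30. Without denervated replicate 2, 2 of this list fell.

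Of 39 other membrane and sorting proteins, 10 rose, 3 fell and 26 were not called, with a median change of 0.00. The shares were 25.6% higher and 7.69% lower, against 11.9% and 16.9% of all genes. Among genes brighter than the median gene, as 35 of the 39 were, 15.0% were called higher. Those that rose most are known from phagocytes: Cd68 (2.20 ± 0.19), Gpnmb (1.36 ± 0.17), Laptm5 (1.31 ± 0.14) and the peptide transporter Slc15a3 (1.28 ± 0.22). Cd68, a heavily glycosylated protein of macrophage lysosomes, had 9.24, 9.99 and 10.48 in denervated bladders and 7.51, 7.68 and 7.93 in sham bladders (lowest, median, highest), so the groups lay more than 1 log2 unit apart. The 3 that fell were the cation channel Tpcn1 (-0.44), the sorting receptor Sort1 (-0.36) and Tmem106b (-0.32). Without denervated replicate 2, 6 fell, and without denervated replicate 6, 5 did.

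Of 10 cystatins and other inhibitors of cathepsins, 2 rose and 8 were not called, which with 11.9% of all genes called higher is near the background. Only 5 of the 10 were brighter than the median gene, so the lack of a call in the dimmer ones says little. Cst7, an inhibitor made by immune cells that acts inside the lysosome, rose by 1.04 ± 0.22 (adjusted p = 0.00346), with 6.83, 7.79 and 8.35 in denervated bladders and 6.47, 6.65 and 6.68 in sham bladders (lowest, median, highest). Cstb, the cytosolic inhibitor, rose by 0.37 ± 0.09. Cst3, the secreted cystatin C, stood at -0.02 ± 0.07 (adjusted p = 0.857). Without denervated replicate 4 or 5 or sham replicate 1, 1 of these genes (Cst6) fell.

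The 18 genes that rose did not rank the denervated arrays alike. Denervated replicate 2 was the lowest of its group for 13 of them, replicate 3 for Ctsc, Man2b1, Psap and Atp6v0d2, and replicate 6 for Tpp1. Of the 18, only Ctsl and Npc2 lay within the sham range in replicate 2. Without it the same number, 18, was called higher. Replicate 6 was the highest for 7 genes, Ctsc, Ctsh, Ctsl, Ctss, Lgmn, Lamp2 and Grn, replicate 5 for Ctsa, Glb1, Gusb, Psap and Lipa, and replicate 4 for Ctsb, Tpp1, Man2b1 and Atp6v0d2.

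Marker lists differed between the arrays too. Above the sham mean, the mean of the 20 macrophage markers was 0.83 in denervated replicate 2, 1.61 in replicate 6 and 1.10 to 1.53 in the other 4. The mean of the 12 fibroblast markers was 0.04 in replicate 2, 0.22 in replicate 6 and 0.66 to 0.86 in the other 4. Replicate 6, where Ctss, Lgmn, Grn and Tfec were highest, had the highest macrophage mean. Replicates 2 and 6, where Ctsk, Glb1, Gusb, Npc2 and Tpp1 were lowest, had the lowest fibroblast means. Single macrophage markers did not all follow their mean. Trem2 had 8.52 and 8.45 in replicates 2 and 6 and 9.46 to 9.82 in the other 4, and Cx3cr1 had 8.27 and 8.54 there and 8.95 to 10.00 in the other 4. Other macrophage markers had their highest denervated value in replicate 6, among them Ms4a6a (11.94), Cybb (11.61) and C1qa (11.25). Of 9 genes listed as osteoclast and giant cell markers 5 were measured and 3 rose. These were Mmp9 (1.72 ± 0.22), which macrophages and neutrophils also make, Oscar (0.58 ± 0.14), a receptor of osteoclasts and myeloid cells, and Tnfrsf11b (0.70 ± 0.21), or osteoprotegerin, which stromal cells secrete and which blocks osteoclast formation. The osteoclast receptors Tnfrsf11a (-0.14) and Calcr (0.04) were not called. Calcr lay below the array medians of 5.82 to 5.90 on every array, where signal over background is unknown, so its result says little. The sham values of Mmp9 (4.59 to 5.41) and Oscar (5.10 to 5.52) lay below these medians too, so the sizes of their rises are uncertain. The mean level of the 5 measured genes of this list was 6.85 to 7.23 in denervated and 6.35 to 6.53 in sham bladders. The part of each cell type in the changes was not tested.

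**Figure D4:**
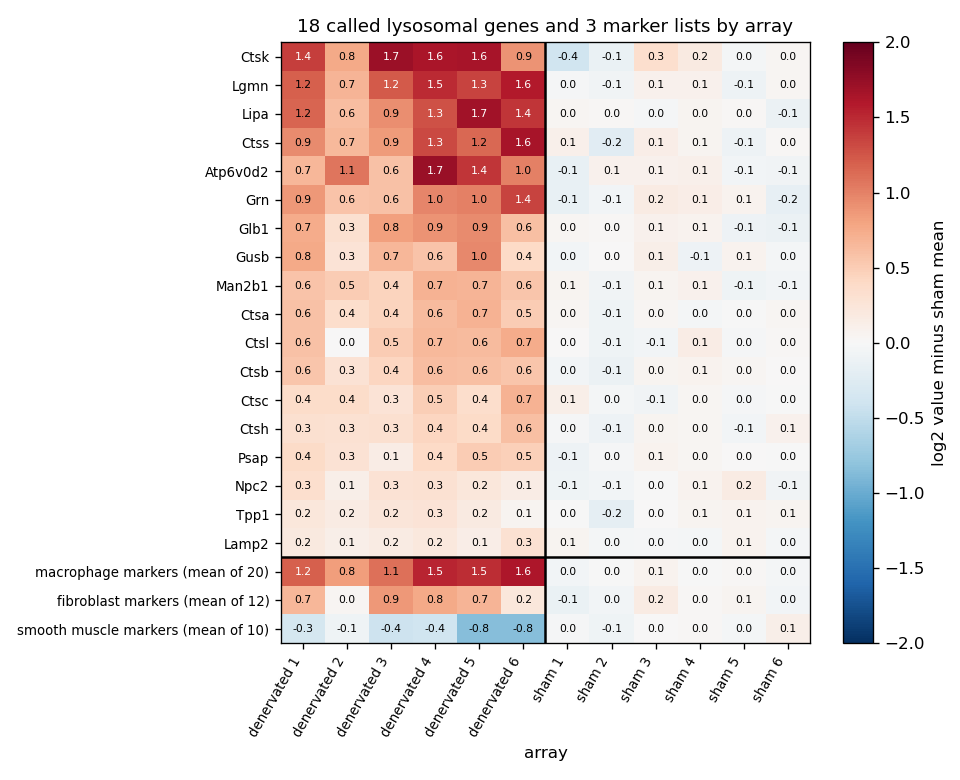
Log2 value minus the sham mean (colour and printed number) for the 18 lysosomal genes that rose (rows, ordered by change) and for the means of 3 marker lists, on each of the 6 denervated (left) and 6 sham (right) arrays. Among denervated arrays, replicates 2 and 6 are lowest for the fibroblast mean and for Ctsk, Glb1, Gusb, Npc2 and Tpp1. Of the denervated arrays, the macrophage mean is lowest in replicate 2 (0.83) and highest in replicate 6 (1.61), where Ctss and Grn are highest too.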

How the data were processed

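Whole urinary bladder RNA of 6 denervated and 6 sham samples was read on 12 arrays. Per the submitters' processing notes, the deposited log2 values of 36685 probe sets were made by the authors with RMA (background correction, quantile normalization, summary per probe set) by the software Expression Console (Affymetrix, 1.4.1.46). Array medians lay between 5.82 and 5.90. Precision is limited by there being 6 arrays a group. Of the probe sets, 18511 carried 1 gene in the platform's table, and the brightest stood for each of 18166 genes. Of these probe sets 18394 matched a RefSeq gene identifier of GRCr8. Gene names are those of the platform's table, and gene identifiers were used to find promoters. The genome build behind the array is not given in the sources used here.

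The values were fitted with limma 3.58.1 in R 4.3.3 (lmFit, eBayes with default settings, two-sided), p-values adjusted by Benjamini-Hochberg over all 18166 genes, and calls made at 0.05. The fit was tested on simulated data. Alternatives were another normalization, centring, filters on dim genes, other limma settings, array weights, a rank-sum test, other probe set rules, the replicate number as a block, a test against a minimum fold and leaving out each array. Members and lists were chosen with earlier results of these data known. All measured members are named. Of each other list the 4 called genes with the largest change (3 of each marker list) were to be named, with Tfe3, Mitf, Tfec, Cst3, Cd68 and Gpnmb whatever their values. The promoters of Lamp1, Ctsd, Mcoln1 and Ctsk and the single genes named outside this rule were chosen after their values were seen. No per-sample column was left unused.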

Additional observations from a re-analysis of the deposited data

Results flagged for a closer look

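For 75 named genes the 6 values of each group were searched for a sample set apart by a gap, relative to the group's range, over Dixon's 95% critical value. This found 14 of 150 groups, and chance finds about 1 in 20.

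Among the lysosomal genes, denervated replicate 2 was low in Ctsl (10.70, the remaining arrays 11.21 to 11.44). Npc1 was high in denervated replicate 5 (8.82, against 8.49 to 8.60) and Scarb2 low in denervated replicate 3 (9.85, against 10.08 to 10.20). In sham arrays, Tpp1 (9.93, against 10.10 to 10.17) and Lamp1 (11.40, against 11.53 to 11.58) were low in replicate 2, Gla was high in replicate 5 (8.33, against 8.02 to 8.13) and Neu1 high in replicate 1 (7.11, against 6.56 to 6.76).

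Of the other named genes, denervated replicate 2 stood apart in Ppp3cb (9.92, against 9.45 to 9.56), Lyz2 (12.11, against 12.74 to 13.05), Cdh19 (6.92, against 4.48 to 5.15) and S100a8 (3.53, against 4.14 to 4.46). Cst3 was low in denervated replicate 3 (11.30, against 11.61 to 11.74). In sham arrays Scpep1 was low in replicate 2 (10.28, against 10.46 to 10.54) and Mylk high in replicate 6 (11.06, against 10.77 to 10.86). In all, 5 of the 14 were in denervated replicate 2, the array nearest to the sham group on the first principal component.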

How the results depend on the processing

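Of the 18 lysosomal genes called higher, 11 kept their call under each of the alternatives run for them, and none was called lower under any. The other 7 were Ctsc, Ctsh, Ctsl, Tpp1, Npc2, Psap and Lamp2, which lost it when limma's treat asked for changes over 1.2-fold. Apart from that test, Ctsl lost it in the exact rank-sum test (adjusted p = 0.0576), Tpp1 with all probe sets as the family (0.0644) and when single arrays were left out, and Tpp1 (0.0758) and Lamp2 (0.0675) with the replicate number as a block. In that 1.2-fold test 11 lysosomal genes, 6 other hydrolases, 6 membrane and sorting proteins, 1 other pump subunit, 1 regulator and 1 cathepsin inhibitor were higher. Lower were 0 other hydrolases, 0 membrane and sorting proteins and 1 regulator, and over all genes 756 were higher and 496 lower. By construction that test asks for larger changes.

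Falls were few and moved more. Lower hydrolases numbered 2 after median centring, without the dimmest 25% of genes, among genes brighter than the median gene, with trend and robust settings, with array weights and in the rank-sum test. Lower membrane and sorting proteins numbered 5 among genes brighter than the median gene, 8 with array weights and 5 in the rank-sum test. Lower pump subunits numbered 2 after median centring, 3 among genes brighter than the median gene and 3 with array weights. In the rank-sum test 1 pump subunit and 1 cathepsin inhibitor were higher. A further quantile normalization, median centring and leaving out the dimmest 25% each gave 1 lower cathepsin inhibitor. The causes were not tested.

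Leaving out each array in turn gave, for higher and lower calls, 17 to 18 and 0 to 0 lysosomal genes, 13 to 13 and 1 to 2 other hydrolases, 8 to 12 and 3 to 6 membrane and sorting proteins, 2 to 2 and 1 to 2 pump subunits (2 lower without denervated replicate 2 or 6), 2 to 3 and 3 to 5 regulators, 2 to 2 and 0 to 1 cathepsin inhibitors, and 1831 to 2612 and 2543 to 3661 genes in all. No pairing by replicate number was seen in the values: correlations of same-numbered deviations across genes ran from -0.11 to 0.10. That check cannot show whether same-numbered samples were handled together. With the replicate block 16 lysosomal genes were called higher. Atp6v0d2 could not be tested among genes brighter than the median gene or without the dimmest 25%, and its size rests on dim sham values.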

Other observations

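Markers of other cells in the bladder wall differed as well, given here as log2 changes of genes called by limma. Among fibroblast markers the serine protease Fap (1.58), the surface protein Thy1 (1.22) and the growth factor receptor Pdgfrb (1.22) rose most, and Tcf21 was the 1 that fell. Of endothelial markers 4 of 8 rose and 0 fell, led by the transcription factor Sox18 (1.06), the junction protein Cdh5 (1.00) and Erg (0.70). Of granulocyte and mast cell markers 4 of 9 rose and 0 fell, led by the receptor Csf3r (1.51), S100a8 (0.63) and the mast cell tryptase Tpsab1 (0.59). Only 1 of these 9 was brighter than the median gene. S100a8 was dim, at 3.53 to 4.46 in denervated and 3.45 to 3.63 in sham bladders, so its size is uncertain. Over all genes 11.9% were called higher and 16.9% lower.

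Of smooth muscle markers 7 of 10 fell, led by the myosin light chain kinase Mylk (-0.99), Synpo2 (-0.99) and Synm (-0.97), while Smtn rose and Actg2 (-0.01) and Des (-0.10) were not called. Of urothelial markers 13 of 13 fell, led by the keratin Krt20 (-1.80), the transcription factor Grhl3 (-0.88) and the uroplakin Upk3b (-0.83). Of Schwann cell markers 5 of 8 fell, led by Scn7a (-3.15), Cdh19 (-2.21) and S100b (-0.84), and their mean level per array was 6.58 to 7.41 in denervated and 7.62 to 7.80 in sham bladders. The urothelial mean was 9.98 to 10.36 in denervated and 10.81 to 11.04 in sham bladders. The shares of these cell types in the lysosomal changes were not tested.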
